A study of Arabidopsis with 26 samples.

Results

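The 409 regions described here are stretches of the Arabidopsis genome at which the chromatin-remodelling ATPase BRM gave a peak in both of its libraries while the related ATPases SYD and MINU2 gave none. They were chosen from 6 peak lists, picked by file name: BRM-GFP brm-1 replicates 1 and 2, SYD-N-GFP syd-5 replicates 3 and 4, and MINU2-GFP minu2-1 replicates 1 and 2. Peaks of these lists on the 5 nuclear chromosomes were joined wherever they overlapped by at least 1 bp, which gave 21697 merged regions. Of these, 409 held a peak of both BRM lists and none of the 4 SYD and MINU2 lists. For comparison, the 2 BRM lists were also merged by themselves, which gave 13475 regions with a peak in both, here called the BRM regions. The 409 are 3.04% of these, and the remaining 13066 are called the other BRM regions. The number depends on the selection: it was 748 or 805 without BRM-GFP brm-1 replicate 1 or 2, and 36 to 2466 over the other settings tried.

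The series holds 26 chromatin immunoprecipitation sequencing (ChIP-seq) peak lists, 1 per library, which merge into 23012 regions. In every line a subunit of a SWI/SNF complex was fused to green fluorescent protein (GFP), and chromatin of whole seedlings aged 14 days was precipitated with an antibody against GFP. By file name the lines are BRM-GFP brm-1 syd-5 (2 lists), SYD-N-GFP syd-5 brm-1 (2), SYD-N-GFP syd-5 swi3d-1 (2), SWI3D-GFP swi3d-1 syd-5 (2), BRM-GFP brm-1 (2), SYD-N-GFP syd-5 (4), SWI3D-GFP swi3d-1 (3) and MINU2-GFP minu2-1 (2). Further lines with 1 list each are SWI3A-GFP swi3a-3, SWI3C-GFP, BSH-GFP bsh, SWP73A-GFP swp73a-2, SWP73B-GFP swp73b-1, BCL7A-GFP bcl7a and BCL7B-GFP bcl7b. All but SWI3C-GFP, for which no allele is named, thus carry a mutant allele in the gene of the tagged subunit, and double names carry a further mutation in a second subunit gene. The promoter that drives each fusion is not given in the sources used here, and a whole seedling mixes all its cell types.

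SWI/SNF complexes use the energy of ATP to slide or evict nucleosomes and so change which DNA is accessible to transcription factors. Plants carry alternative ATPases: BRM and SYD are large proteins, while the MINU proteins are shorter. Their complexes hold further proteins, such as SWI3, SWP73, BSH and BCL7 subunits, and not every complex need hold each of them. Loss of BRM or SYD is known in Arabidopsis for defects in leaf, flower and root development and in hormone responses.

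The records of the libraries are not in accord, and this touches every result below. The sample label and the file name give different lines for 19 of the 26 libraries. The 4 BRM lists, SYD-N-GFP syd-5 replicates 3 and 4 and 1 of the SWI3D-GFP swi3d-1 lists have the same line in both records. The lists named MINU2-GFP minu2-1 are labelled SYD-GFP syd-5. In the 4 lists whose peak names state a line, that line matches the file name and not the label. Lines are therefore given by file name throughout, and the values without the MINU2-named lists are given below. The lists hold 4383 to 21329 nuclear peaks, and those of the 6 lists behind the selection hold 15375 to 18711. No list is identical to another. They hold no read numbers, so depth is unknown, and their weakest peaks have a −log10 q of 1.30 to 1.52, close to a q of 0.05. A region without a peak is therefore one not called in that library and not one shown to be free of the protein. Peaks on the organelle genomes occur in 12 lists, among them both MINU2-named ones, and in none of the 4 BRM and 8 SYD lists, a difference between the lists that runs with the selection. Its part in the selection was not tested.

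**Figure D1:**
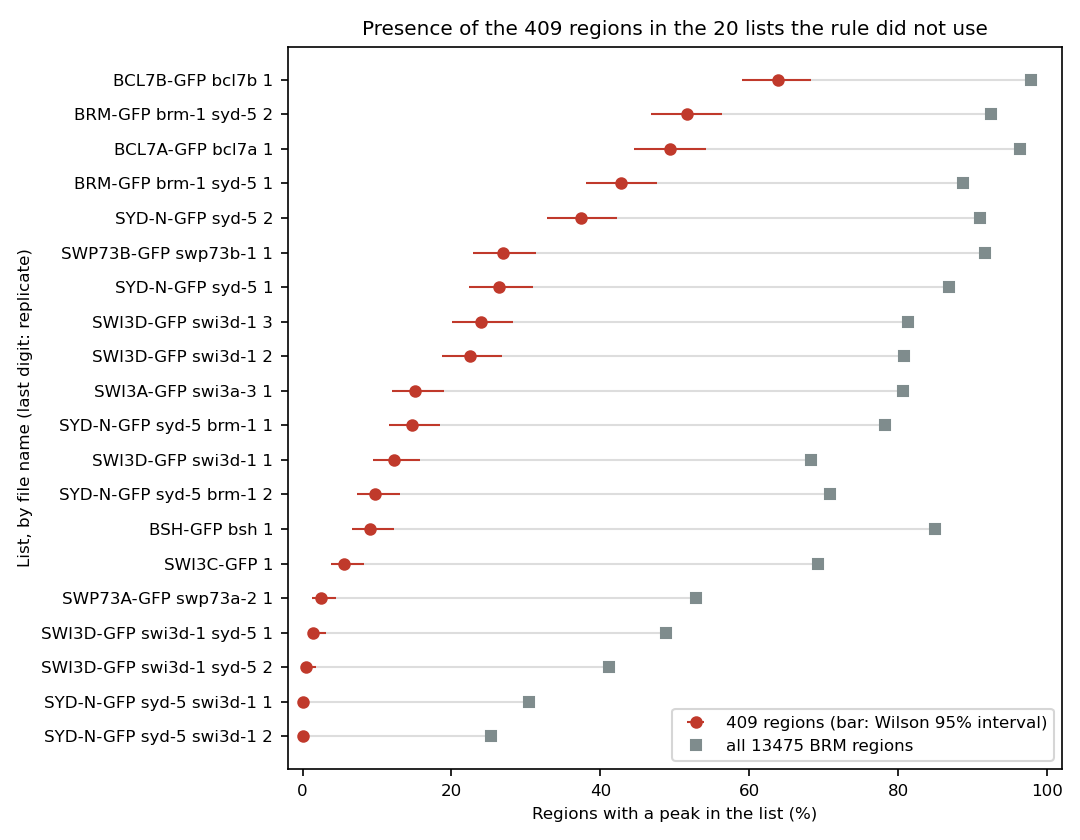
Share of regions with a peak (x axis, percent) in each of the 20 lists the selection did not use (y axis, by file name). Red points are the 409 regions with Wilson 95% intervals, which cover counting error only, and grey squares are all 13475 BRM regions; the red points run between 0% and 63.8% and lie left of the grey square in every one of the 20 lists.

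The absence of SYD did not hold in the lists named SYD-N-GFP syd-5 that were left out of the selection. Their records conflict: replicate 1 is labelled BSH-GFP bsh and replicate 2 SWI3C-GFP, so this result rests on the file names. SYD-N-GFP syd-5 replicate 1 had a peak in 108 of the 409 regions (26.4%), against 86.8% of all BRM regions. Replicate 2 had a peak in 153 (37.4%), against 90.9% of all BRM regions. At least 1 of these lists had a peak in 175 regions (42.8%), against 92.6% of all BRM regions, both had one in 86, against 85.2%, and neither in 234, against 7.41%. The name "BRM-only" therefore describes the 6 lists used and not the series, and the regions are called by their number here. The SYD peaks in them ranked low in their lists, at a median percentile of −log10 q of 14.2 in replicate 1 and 17.7 in replicate 2.

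BRM itself was called again in many of the regions when SYD was mutated. BRM-GFP brm-1 syd-5 replicate 1 had a peak in 175 of the 409 regions (42.8%, Wilson 95% interval 38.1% to 47.6%), against 88.7% of all BRM regions. Replicate 2 had a peak in 211 (51.6%, interval 46.8% to 56.4%), against 92.5%. These intervals cover counting error only. Both lists had a peak in 143 regions (35.0%, interval 30.5% to 39.7%), against 86.4% of all BRM regions, and at least 1 list in 243 (59.4%), against 94.8%. These lists come from a line with the same tagged protein, so they are the nearest to a repeat of the BRM libraries that the selection did not use, although they also carry the syd-5 allele. Repeat calls and the effect of that allele cannot be told apart here. In the 143 regions called in all 4 BRM lists the authors' fold enrichment had a median of 2.28 and 2.32 in the BRM-GFP brm-1 syd-5 lists, against 2.42 and 2.36 in the BRM-GFP brm-1 lists. Their median percentile of −log10 q was 30.0 and 30.7 in the BRM-GFP brm-1 syd-5 lists, against 33.4 and 33.3 in BRM-GFP brm-1.

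The lists of the accessory subunits ranged from well over 50% of the regions to almost none. BCL7A and BCL7B are small subunits named after the human BCL7 family. BCL7B-GFP had a peak in 261 of the 409 regions (63.8%), against 97.9% of all BRM regions, and BCL7A-GFP in 202 (49.4%), against 96.3%. Either BCL7 list had a peak in 311 of the 409 regions, against 98.9% of all BRM regions, and both had one in 152, against 95.3%. SWP73B-GFP, which tags one of a pair of related SWP73 subunits, had a peak in 110 (26.9%), against 91.6% of all BRM regions. SWP73A-GFP, the other of the pair, had one in 10 (2.44%), against 52.9%, and its list was also shorter, with 8960 peaks against 21329. The part of list length in such differences was not tested. Both BCL7 lists also lack organelle peaks, while every other list of a tagged accessory subunit without an ATPase tag holds them. That split runs with the higher BCL7 shares and cannot be told apart from the subunit here.

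SWI3C, known in Arabidopsis as the SWI3 partner of BRM, was called in few of the regions. SWI3C-GFP had a peak in 23 (5.62%, interval 3.78% to 8.30%), against 69.2% of all BRM regions. SWI3A-GFP had one in 62 (15.2%), against 80.6%, and BSH-GFP, the SNF5-type subunit, in 37 (9.05%), against 84.9%. The 3 SWI3D-GFP swi3d-1 lists had peaks in 50 (12.2%), 92 (22.5%) and 98 (24.0%) regions, against 68.3%, 80.8% and 81.3% of all BRM regions. SWI3D, known as a partner of SYD, was thus called in more of the 409 regions than SWI3C in each of its 3 lists. SWI3C had the shorter list, with 12242 peaks against 13030 to 16629. The order was the opposite in the 37 regions with a mean percentile of −log10 q of 50 or above in the BRM-GFP brm-1 lists. There SWI3C-GFP had a peak in 8 regions (21.6%), and SWI3D-GFP swi3d-1 replicates 1, 2 and 3 in 3 (8.11%), 6 (16.2%) and 7 (18.9%). This order thus rests on very few regions. The difference between these lines, with a single SWI3C library, was not tested. The SWI3C-GFP share also depends on the selection. It was 26.2% with groups read from the labels, where the list named SYD-N-GFP syd-5 replicate 2 stands for SWI3C-GFP. It was 25% with a −log10 q of at least 10 in the BRM lists. It was 13.0% without the MINU2-named lists and 9.09% without SYD-N-GFP syd-5 replicate 3. The share was 54.7% where only a SYD or MINU2 peak sharing 50% of both lengths excluded a BRM region, so lesser overlaps stayed in. With a −log10 q of at least 10 in all 6 lists, where weaker SYD and MINU2 peaks excluded nothing, it was 47.3%.

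SYD and SWI3D were called in fewer of the regions in lines with a second mutation than in lines without it. SYD-N-GFP syd-5 brm-1 had a peak in 60 regions (14.7%) in replicate 1 and in 40 (9.78%) in replicate 2, against 78.2% and 70.8% of all BRM regions. SWI3D-GFP swi3d-1 syd-5 had a peak in 6 (1.47%) and 2 (0.489%), against 48.8% and 41.2%. SYD-N-GFP syd-5 swi3d-1 had a peak in 0 of 409 in either replicate, against 30.4% and 25.3%, and a count of 0 allows a share of up to 0.733% by the limit of 3 counts in 409, or 0.930% by the Wilson 95% interval. These last lists hold 5227 and 4383 peaks, and SWI3D-GFP swi3d-1 syd-5 holds 8759 and 7062, against 13030 to 17283 peaks in the SWI3D-GFP swi3d-1 lists and in SYD-N-GFP syd-5 replicates 1 and 2.

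The share of the regions with a peak was compared between mutant backgrounds over libraries, for the 3 pairs of lines with at least 2 libraries on each side. It averaged 12.2% ± 3.46 (SD, n = 2) in SYD-N-GFP syd-5 brm-1 and 31.9% ± 7.78 (SD, n = 2) in SYD-N-GFP syd-5 replicates 1 and 2, a difference of −19.7 percentage points (exact two-sided permutation p = 0.33, adjusted p = 0.33). Over all BRM regions the means were 74.5% and 88.9%, a difference of −14.4 points. The share was 0% in SYD-N-GFP syd-5 swi3d-1 and 31.9% ± 7.78 in SYD-N-GFP syd-5. That is a difference of −31.9 points (exact permutation p = 0.33, adjusted p = 0.33). Over all BRM regions the means were 27.8% and 88.9%, a difference of −61.1 points. The share averaged 0.978% ± 0.692 (SD, n = 2) in SWI3D-GFP swi3d-1 syd-5 and 19.6% ± 6.39 (SD, n = 3) in SWI3D-GFP swi3d-1. That is a difference of −18.6 points (exact permutation p = 0.1, adjusted p = 0.3). Over all BRM regions the means were 45.0% and 76.8%, a difference of −31.9 points. The reference shares differ between the sets and no share can fall below 0%, so the points do not rank the sets by loss. The selection also excluded regions with a peak in the other SYD-N-GFP syd-5 lists. Its part in the low reference shares was not tested. In each pair the groups did not overlap, and each p is the smallest that these numbers of libraries allow, so none could pass 0.05. With each list cut to its strongest peaks at equal list lengths the differences shrank to −5.75, −1.10 and −0.937 points. The lists of each pair all have, or all lack, organelle peaks, so that split does not run with these groups. Every list of these pairs but 1 has conflicting records, and with groups read from the labels the SWI3D difference was +43.6 points, the opposite direction.

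The 409 regions ranked low and were narrow in the BRM lists themselves, which is a description since the selection used those lists. Their fold enrichment had a median of 2.17 and 2.14 in the 2 BRM-GFP brm-1 lists, against 3.06 and 3.002 in the other BRM regions. Their median width was 574 bp, against 960 bp, and their mean percentile of −log10 q had a median of 22.5, against 56.2. The highest mean percentile was 81.1, so 0 were in the top decile, and 37 were at 50 or above. The summits of the 2 replicates lay a median of 62 bp apart, against 54 bp in the other BRM regions.

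The BRM regions were divided into 5 ranges of mean percentile, and in each range every one of the 20 lists had a peak in a smaller share of the 409 regions than of the other BRM regions. The other BRM regions all hold a SYD or MINU2 peak by the rule, and the ranges do not match the sets in width. The part of either in these shares was not tested. In the ranges under 50 the median percentiles of the sets were near each other, such as 38.5 and 40.0 between 30 and 50. In the range of 50 to 100 they were not, at 58.7 for the 409 regions and 75.2 for the other BRM regions, so the sets are not matched in strength there. In the range of 50 to 100, with 37 regions, SWI3C-GFP had a peak in 21.6%, against 89.9% of the 7421 other BRM regions of that range. BSH-GFP had one in 13.5%, against 93.3%. SYD-N-GFP syd-5 brm-1 had one in 5.41% and 0%, against 89.3% and 83.9%. The gaps were smaller in the lists of BRM itself and of BCL7B. BRM-GFP brm-1 syd-5 had a peak in 91.9% and 86.5% of the 37, against 98.8% and 99.3%, and BCL7B-GFP in 94.6%, against 99.9%.

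**Figure D2:**
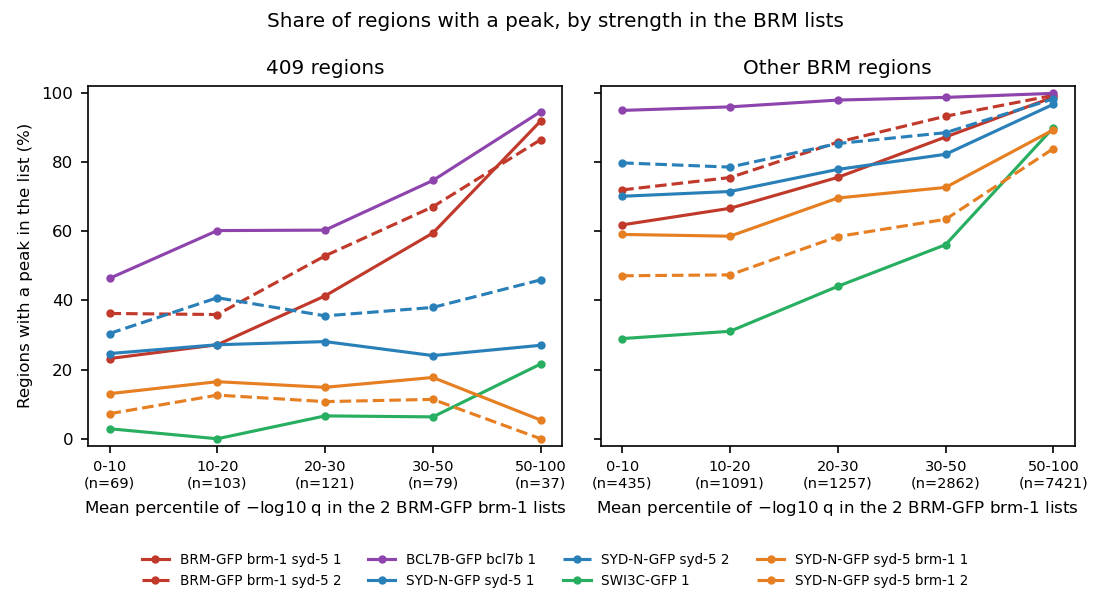
Share of regions with a peak (y axis, percent) in 8 lists, by the mean percentile of −log10 q in the 2 BRM-GFP brm-1 lists (x axis, 5 ranges with the number of regions), for the 409 regions (left) and the other BRM regions (right). On the left the BRM-GFP brm-1 syd-5 lines climb to 91.9% and 86.5% and BCL7B-GFP to 94.6% in the strongest range while SYD-N-GFP syd-5 brm-1 ends at 5.41% and 0%; on the right all lines end above 80%.

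The share of the 409 regions with a BRM-GFP brm-1 syd-5 peak was higher in the stronger ranges. From the lowest range (69 regions) to the highest (37 regions), it was 23.2%, 27.2%, 41.3%, 59.5% and 91.9% in replicate 1, and 36.2%, 35.9%, 52.9%, 67.1% and 86.5% in replicate 2. The 3 SWI3D-GFP swi3d-1 lists did not share an order over the ranges. Replicate 3 had 29.0%, 26.2%, 24.0%, 19.0% and 18.9%. Replicate 2 had 26.1%, 21.4%, 24.8%, 20.3% and 16.2%, and replicate 1 had 7.25%, 12.6%, 18.18%, 8.86% and 8.11%. SYD-N-GFP syd-5 replicate 1 stayed between 24.1% and 28.1% over the 5 ranges, and replicate 2 between 30.4% and 45.9%. No trend over the ranges was tested. In the other BRM regions the SWI3D-GFP and SYD-N-GFP syd-5 shares were highest in the strongest range, at 84.3% to 93.2% for SWI3D-GFP and 96.7% and 98.3% for SYD-N-GFP syd-5.

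The regions also differed among themselves by whether BRM was called again in BRM-GFP brm-1 syd-5. Both of those lists had a peak in 143 regions, 1 of them in 100 and neither in 166, and the median BRM percentile of these classes was 31.1, 19.0 and 18.6. Regions called in both more often held BCL7B (78.3%, against 51.2% of those called in neither), BCL7A (58.7%, against 41.0%), SWI3A (20.98%, against 9.04%) and SWI3C (10.5%, against 3.61%). They less often held SWI3D, with 6.99%, 16.8% and 17.5% in its 3 lists, against 18.1%, 29.5% and 30.7% of those called in neither. SYD-N-GFP syd-5 brm-1 was called in 9.79% and 5.59% of them, against 19.3% and 15.1%. SYD-N-GFP syd-5 replicates 1 and 2 differed less, with 25.2% and 34.3%, against 28.3% and 38.6%. These classes also differ in BRM strength, and the shares are given as a description with no test.

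The 409 regions held a peak in a median of 4 of the 20 lists (quartiles 2 and 6, highest 12), against 16 (quartiles 12 and 19, highest 20) for the other BRM regions. A peak in 10 lists was seen for 8 of the 409 regions, in 11 for 10 and in 12 for 1. A peak in none of the 20 lists was seen for 28 regions (6.85%), and these are 28 of the 32 such regions among all 13475.

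The nearest SYD or MINU2 peak of the 6 lists was a median of 918 bp away (quartiles 486 and 1810 bp), with 106 regions (25.9%) under 500 bp and 22 over 5000 bp. The other BRM regions overlap such a peak by the rule, so this distance has no counterpart for them. The nearest further BRM region was a median of 1335 bp away from the 409 regions, against 1823 bp for the other BRM regions, and 169 (41.3%) had one under 1000 bp away, against 31.2%. These distances were not tested. At the border of the rule, the members with the smallest gaps were at NCED5, a gene of abscisic acid synthesis (15 bp), at AT4G31330 (17 bp) and near AT2G28510 (19 bp). The excluded regions with the smallest overlaps were at NAC075, a NAC transcription factor gene (14 bp with a SYD-N-GFP syd-5 replicate 3 peak), at AT3G47980 (19 bp, the same list) and near AT3G56210 (23 bp, replicate 4). The BRM fold enrichment was 1.82 and 2.00 at NCED5 and 1.78 and 1.83 at NAC075. Of the 13066 other BRM regions, 449 had a peak in 1 of the 4 SYD and MINU2 lists, 2443 in 2, 1757 in 3 and 8417 in 4, and their median BRM percentile was 25.3, 34.8, 45.7 and 67.9 in that order.

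The MINU2-named lists removed more regions than they left. Without them, 1478 BRM regions had no SYD peak, and 1069 of these held a MINU2 peak. Both BRM-GFP brm-1 syd-5 lists had a peak in 35.0% of the 409 regions, against 56.0% of the 1478, and SWI3C-GFP had one in 5.62%, against 13.0%. The gap between the sets differed between the lists. BSH-GFP was called in 9.05% of the 409 regions and 70.8% of the 1478, SWI3A-GFP in 15.2% and 73.3%, and SWP73B-GFP in 26.9% and 76.4%. BCL7A-GFP was called in 49.4% of the 409 regions and 82.1% of the 1478, and BCL7B-GFP in 63.8% and 88.1%. The SWI3D-GFP swi3d-1 lists were called in 12.2%, 22.5% and 24.0% of the 409 regions and 8.39%, 24.9% and 24.2% of the 1478, and SWP73A-GFP in 2.44% and 4.67%. SYD-N-GFP syd-5 replicates 1 and 2 were called in like shares of both sets, with 26.4% and 37.4% of the 409 regions and 25.9% and 40.4% of the 1478.

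Relative to genes, the summits of the 409 regions lay inside a protein-coding gene in 289 cases (70.7%), against 70.6% of the other BRM regions. Genes were split into 3 equal stretches, a middle one and an outer one at either end, since no strand was at hand. The summit was in the middle stretch in 51 (12.5%), against 6.33%, and in an outer stretch in 238 (58.2%), against 64.3%. It was outside but within 1 kb of a gene end in 63 (15.4%), against 18.3%, and farther away in 57 (13.9%), against 11.1%. The median distance to the nearest gene end was 345 bp, against 286 bp. An annotated pseudogene outside coding genes held 4 of the summits (0.978%), against 0.444%. These shares and distances were not tested. Gene density was alike, with a median of 55 protein-coding genes within 100 kb on either side in both sets.

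**Figure D3:**
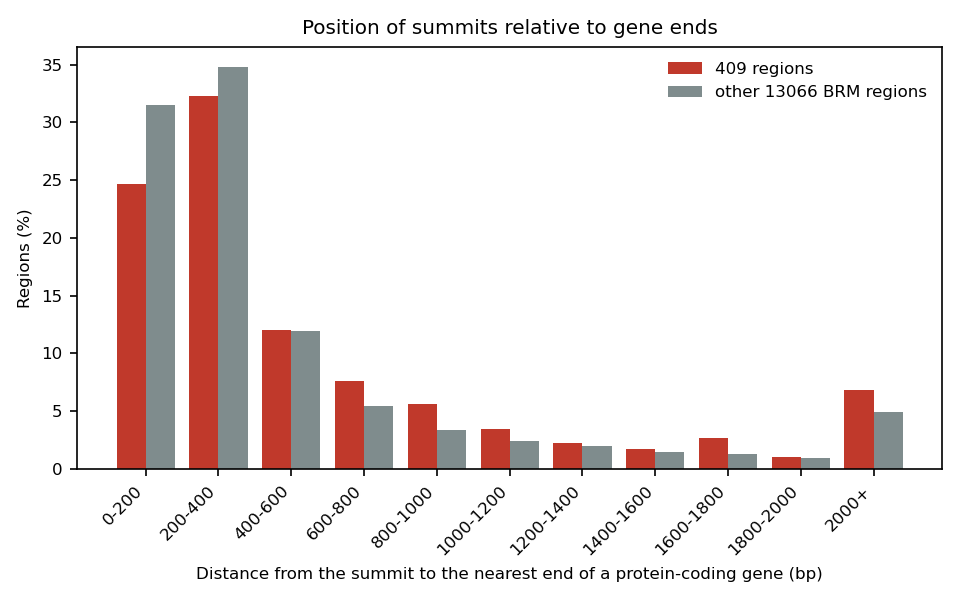
Distance in bp from the summit of each region to the nearest end of a protein-coding gene (x axis, bins of 200 bp, the last bin open) and share of regions in each bin (y axis, percent), for the 409 regions (red) and the other 13066 BRM regions (grey). The first bin holds 24.7% of the 409 regions and 31.5% of the other BRM regions, and the open last bin 6.85% and 4.88%.

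By these positions 352 regions were assigned to 348 genes, and 97 of these genes (27.9%) also had another BRM region. No like share was taken for the genes of the other BRM regions, so the 27.9% has no comparison here. The chromosomes held 92, 62, 68, 70 and 117 of the regions, from chromosome 1 to chromosome 5, which is 2.55%, 2.99%, 2.595%, 3.48% and 3.69% of the BRM regions there.

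The strongest of the regions by BRM percentile lay in AT4G39190 (chr4:18251958-18253259, TAIR10, in the middle stretch of the gene). Its fold enrichment reached 3.83 and 4.24 in the BRM-GFP brm-1 syd-5 lists, against 4.46 and 4.67 in BRM-GFP brm-1. In 6 further lists it had weak peaks, the strongest at a fold of 2.66 in BCL7B-GFP and a percentile of 25.96 there. It was thus a clear BRM region in all 4 BRM lists, with no peak in any of the 8 SYD lists.

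OFP12 (chr1:1589917-1590951), which encodes a member of the OVATE family of transcriptional repressors, came next. Its fold was 1.87 in BRM-GFP brm-1 syd-5 replicate 1, with no peak in replicate 2, against 3.52 and 3.60 in BRM-GFP brm-1. It also had peaks in SYD-N-GFP syd-5 replicate 2 (fold 2.28), SYD-N-GFP syd-5 brm-1 replicate 1 (2.13) and SWI3D-GFP swi3d-1 replicates 2 and 3 (2.20 and 2.08). IDL2 (chr5:25850291-25851576), a gene for a small peptide related to the abscission signal IDA, had a fold of 2.01 in BRM-GFP brm-1 syd-5 replicate 2 alone, against 3.74 and 3.32 in BRM-GFP brm-1. All 3 SWI3D-GFP swi3d-1 lists had a peak at IDL2, with folds of 2.11, 2.17 and 1.82. So did SYD-N-GFP syd-5 replicates 1 and 2 (2.17 and 2.57), SYD-N-GFP syd-5 brm-1 replicate 1 (1.85) and both BCL7 lists. Of the 12 strongest regions, OFP12 and IDL2 were the ones called in only 1 of the BRM-GFP brm-1 syd-5 lists.

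RLP29 (chr2:17807974-17808550), a gene for a receptor-like protein, was strong in BRM and wide in subunits. Its fold was 3.18 and 3.76 in the BRM-GFP brm-1 syd-5 lists, against 3.69 and 4.06 in BRM-GFP brm-1. Among the subunits it reached 3.89 in BCL7B-GFP and 2.87 in SWI3C-GFP, and it had peaks in 11 of the 20 lists. AT3G44940 (chr3:16414640-16415337) and AT1G53060 (chr1:19775777-19776348) also held SWI3C-GFP peaks, both at a fold of 2.56. BRM-GFP brm-1 syd-5 gave 3.05 and 2.93 at AT3G44940, against 4.29 and 3.32 in BRM-GFP brm-1. At AT1G53060 it gave 3.61 and 3.80, against 3.61 and 3.80 in BRM-GFP brm-1.

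RPL (chr5:395570-396517), which encodes a BEL1-type homeodomain protein with roles in the shoot meristem and the fruit, was called in BRM, BCL7 and SWI3C lists alone. Its fold was 1.87 and 2.71 in the BRM-GFP brm-1 syd-5 lists, against 3.61 and 3.26 in BRM-GFP brm-1, and it was 2.94 in BCL7B-GFP, 1.61 in BCL7A-GFP and 1.99 in SWI3C-GFP. NANA (chr3:4036857-4037929), for an aspartic protease of the chloroplast, had the highest BCL7B-GFP fold of the 12, at 4.32. Its BRM fold was 2.14 and 2.69 in the BRM-GFP brm-1 syd-5 lists, against 3.44 and 3.64 in BRM-GFP brm-1. The only other list with a peak at NANA was BCL7A-GFP (2.67). AT5G65170 (chr5:26041014-26042377) had a single peak beyond the BRM lists, in BCL7B-GFP (3.18). Its BRM fold was 2.32 and 3.76 in the BRM-GFP brm-1 syd-5 lists, against 3.13 and 3.71 in BRM-GFP brm-1.

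ALS3 (chr2:15669034-15669580), a gene needed for tolerance of aluminium, ADF1 (chr3:16910395-16910844), for an actin-depolymerising factor, and AT3G21330 (chr3:7506633-7508071) completed the 12. Each was called in both BRM-GFP brm-1 syd-5 lists, with folds of 2.28 to 3.17 there and 3.23 to 3.84 in BRM-GFP brm-1. Each also had a peak in SYD-N-GFP syd-5 replicate 2, at 1.79, 2.37 and 2.04 in that order, and ALS3 had one in replicate 1 (2.27).

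**Figure D4:**
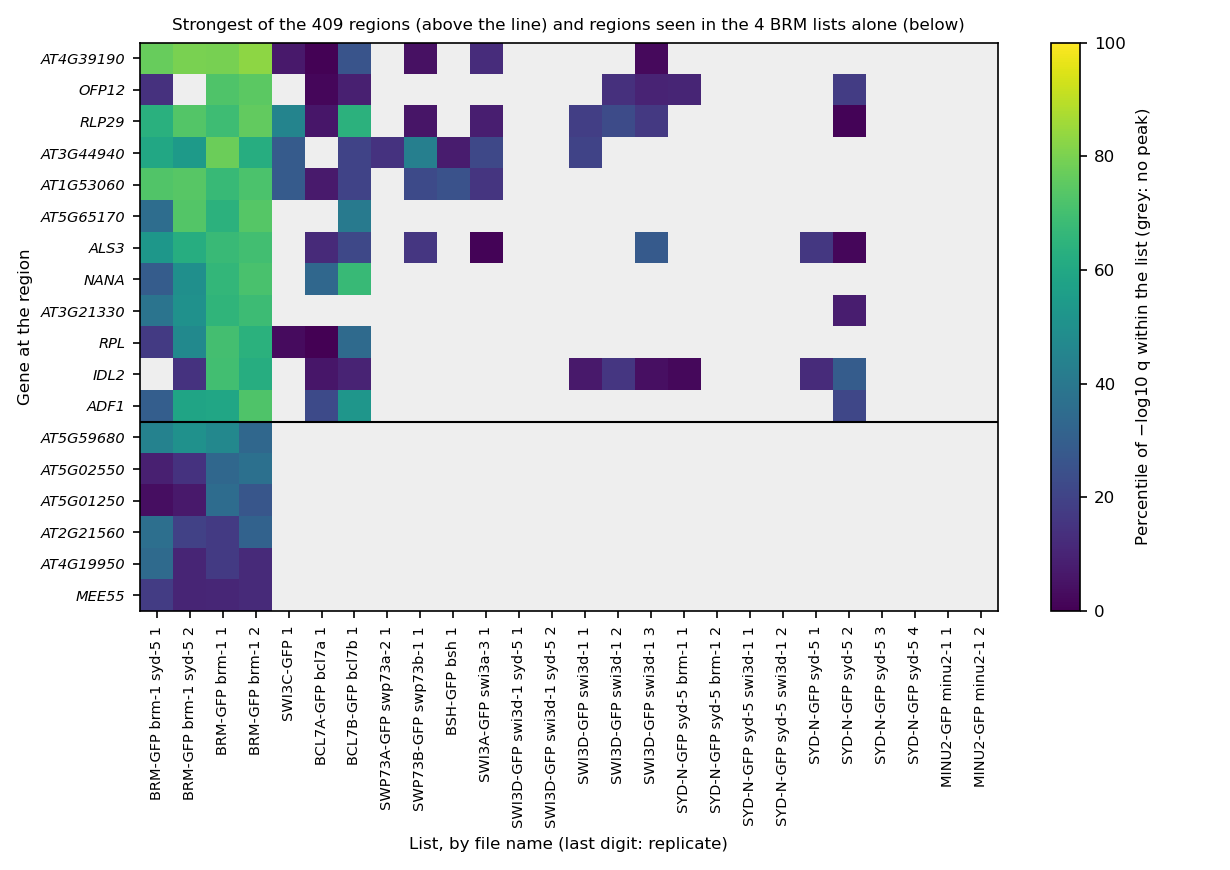
Percentile of −log10 q within each of the 26 lists (colour; grey where the list had no peak) for the 12 strongest of the 409 regions (rows above the line, by BRM percentile) and for the 6 strongest of those called in the 4 BRM lists alone (rows below it). Most bright cells stand in the 4 BRM columns, AT4G39190 being at 76.6 to 82.9 in all 4 of them, with RLP29 and NANA also bright in BCL7B-GFP (64.3 and 67.4), and the columns of the 4 SYD and MINU2 lists used by the selection and of the SYD-N-GFP syd-5 swi3d-1 lists are grey throughout.

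A peak in both BRM-GFP brm-1 syd-5 lists and in none of the 17 lists of tagged proteins other than BRM and SWI3C was seen for 9 regions, and 0 of these had a SWI3C-GFP peak. They were thus called in the 4 BRM lists alone, and they were modest. No like count was taken for the other BRM regions, so these 9 have no comparison here. The strongest, in AT5G59680 (chr5:24047356-24047778), reached folds of 2.58 and 2.80 in the BRM-GFP brm-1 syd-5 lists, against 2.76 and 2.40 in BRM-GFP brm-1. AT5G02550 (chr5:573181-573569) and AT5G01250 (chr5:103285-103796) had 1.76 to 2.01 in the BRM-GFP brm-1 syd-5 lists, against 2.27 to 2.49 in BRM-GFP brm-1. AT2G21560 (chr2:9230673-9231388), AT4G19950 (chr4:10809892-10810264) and MEE55 (chr4:7765142-7765726), a gene named for its maternal-effect embryo arrest, had 1.92 to 2.41 in the BRM-GFP brm-1 syd-5 lists, against 1.95 to 2.36 in BRM-GFP brm-1.

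At the other end stood regions found in the most lists. ATCSLA15 (chr4:7795040-7795453), a gene of the cellulose synthase-like A family, had peaks in 12 of the 20 lists, the highest number of any of the 409 regions. Its fold was 3.33 and 3.44 in SYD-N-GFP syd-5 replicates 1 and 2, 3.27 and 2.82 in SYD-N-GFP syd-5 brm-1, and 2.29 and 2.05 in BRM-GFP brm-1. At 4CL3 (chr1:24168245-24169581), for a 4-coumarate:CoA ligase of the phenylpropanoid pathway, the SYD-N-GFP syd-5 folds were 3.96 and 4.46 and the BRM-GFP brm-1 folds 2.21 and 2.40. A region whose nearest gene was TWN2, for a valyl-tRNA synthetase (chr1:5005940-5006970, with the summit 1690 bp from the gene), had no BRM-GFP brm-1 syd-5 peak at all. It had folds of 4.15 and 3.53 in SYD-N-GFP syd-5 brm-1, 2.96 and 3.44 in SYD-N-GFP syd-5 replicates 1 and 2, and 2.55 and 2.58 in BRM-GFP brm-1. The regions near AT4G04745 (chr4:2411347-2412206) and in AT4G05590 (chr4:2907017-2907571) likewise had peaks in both SYD-N-GFP syd-5 lists, at 2.17 to 3.54, with 11 of the 20 lists each. In these 5 regions SYD was called in every SYD list of the syd-5 and syd-5 brm-1 lines outside the selection, except at 4CL3, where SYD-N-GFP syd-5 brm-1 had no peak. RLP29, described above, also had peaks in 11 of the 20 lists but differed from these 5. Its only SYD peak was a weak one in SYD-N-GFP syd-5 replicate 2, at a fold of 1.74 and a percentile of 1.16.

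Lists of genes of flowering, hormone, meristem, light, heat and SWI/SNF function were searched for the regions. Of 191 listed genes matched by symbol, 7 (3.66%) had one of the 409 regions over them or within 1 kb of an end, against 1.74% of all 27444 protein-coding genes. Any BRM region was at 148 of the 191 (77.5%), against 59.8% of all protein-coding genes. Genes of meristem and leaf development gave 4 of 26. The flowering and MADS box list gave 1 of 25, the auxin list 1 of 26 and the cytokinin list 1 of 23. None was found among 22 genes of abscisic acid and seed, 17 of gibberellin, 25 of light and clock, 16 of heat and 11 of SWI/SNF subunits.

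The meristem and leaf genes were KNAT6, CUC2, AFO and TCP4. KNAT6 (chr1:8302141-8302680), a KNOX homeobox gene of the meristem and organ boundary, reached folds of 2.75 and 2.32 in the BRM-GFP brm-1 syd-5 lists, against 2.72 and 2.62 in BRM-GFP brm-1, and had further peaks in SWI3A-GFP and both BCL7 lists. The region within 1 kb of CUC2 (chr5:21899578-21900854), a NAC gene of organ boundaries, had a fold of 2.32 in only 1 of the BRM-GFP brm-1 syd-5 lists, against 1.78 and 1.75 in BRM-GFP brm-1. SWI3D-GFP swi3d-1 replicates 2 and 3 both gave 2.84 there. The BRM summit of this region lay nearest to another gene, AT5G53940, at 1231 bp. AFO (chr2:18631566-18632387), also called FIL or YAB1, is a YABBY gene of the lower leaf side. The BRM summit of its region lay 1469 bp from the gene. This region had peaks in all 3 SWI3D-GFP swi3d-1 lists, at 2.50, 2.62 and 2.603, with 2.04 and 2.18 in BRM-GFP brm-1. It had none in any SYD or BRM-GFP brm-1 syd-5 list, and further ones in SWP73B-GFP (2.22) and BCL7B-GFP (2.13). TCP4 (chr3:5060308-5061173), a leaf growth regulator targeted by miR319, had 2.21 and 1.96 in BRM-GFP brm-1 and further peaks in the BCL7 lists alone.

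The region near FUL, a MADS box gene of flowering and fruit, lay with its summit in the neighbouring gene RLK1 (chr5:24500910-24501894). Its fold was 2.28 and 1.87 in the BRM-GFP brm-1 syd-5 lists, against 3.55 and 2.51 in BRM-GFP brm-1, and 3.13 in BCL7B-GFP. IPT3 (chr3:23318281-23318671), for an enzyme of cytokinin synthesis, had 2.11 and 1.62 in the BRM-GFP brm-1 syd-5 lists, against 2.01 and 2.32 in BRM-GFP brm-1, and peaks in both SYD-N-GFP syd-5 lists outside the selection (2.11 and 1.94). IAA14 (chr4:8347193-8347974), an Aux/IAA repressor that acts in lateral root formation, had 1.98 and 2.14 in the BRM-GFP brm-1 syd-5 lists, against 1.87 and 1.83 in BRM-GFP brm-1. It also held SWI3C-GFP (2.24) and SWI3D-GFP swi3d-1 replicate 2 and 3 peaks (2.31 and 2.72). BRM-GFP brm-1 syd-5 thus had a peak in both replicates at 4 of these 7 regions, at FUL, KNAT6, IPT3 and IAA14. The share with both peaks was 35.0% over the whole selection and 86.4% over all BRM regions. Whether these 7 regions differ from either was not tested.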

How the data were processed

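Per the submitters' processing notes, fastp, Bowtie2, MACS2 2.0, deepTools and ChIPseeker were used with the TAIR10 build; their settings and the control are not given in the sources used here. Each library was made from 1 g of seedlings, per the labels' protocols, and its peaks were called separately. The deposited lists give per peak a score, a fold enrichment (a linear ratio), −log10 p and −log10 q values and a summit offset, all the authors' own. Peaks were ranked and filtered on −log10 q within a list, as a percentile. Folds of different lists stand side by side as the authors' values, were not normalized to each other and were not tested, and no change is read from them. The number of sample columns left unmapped was 0.

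Regions were merged with Python 3.11.15, NumPy 2.4.6, SciPy 1.17.1 and pandas 2.3.3. Presence means an overlap of at least 1 bp. Tests are exact two-sided permutation tests of the share per list with Benjamini-Hochberg adjustment over 3 tests. Whether libraries came from separate cultures is not stated beyond their replicate numbers. The steps of the selection were run on simulated lists in which sites never touched and no peak was missed. That checks the steps alone and not what weak or missed peaks do to the selection.

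Gene names, neighbours and distances come from the RefSeq gene table of TAIR10.1, whose nuclear chromosomes carry the same sequence as TAIR10. It gives no strand, so "within 1 kb of an end" replaced the upstream class planned. Of 207 listed symbols 193 matched, for 191 genes. Motifs and sequences were not analysed here. The regions, gene lists and tests were chosen with earlier results of these data known. Named regions are the 12 of highest mean BRM percentile, the 6 in the most further lists, the 6 strongest in BRM lists without other tagged proteins save SWI3C, those at listed genes, and 3 on each side of the border. Alternatives were another overlap, stricter peaks, equal list lengths, other reference lists, label reading and each library left out.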

Additional observations from a re-analysis of the deposited data

How the results depend on the processing

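Of 110 alternative values, 68 kept their direction or stayed within the limit set for their kind, 41 moved and 1 reversed. For the 3 differences between lines only the sign was judged. Values that shrank, such as from −31.9 to −1.10 points, thus count among the 68, which is no measure of stable size. The number of regions was 2466 when only a SYD or MINU2 peak sharing 50% of both lengths excluded a BRM region, so lesser overlaps stayed in. It was 476 with a −log10 q of at least 10 in all 6 lists, where weaker SYD and MINU2 peaks excluded nothing. It was 36 with a −log10 q of at least 10 in the BRM lists. It was 234 with no peak in SYD lists 1 and 2 either and 1478 without the MINU2-named lists. Leaving out 1 library gave 436 to 805, with 748 and 805 without BRM-GFP brm-1 replicate 1 and 2. Under the 50% overlap, the stricter BRM peaks, a −log10 q of at least 10 in all 6 lists, equal list lengths and no MINU2-named lists, the share with both BRM-GFP brm-1 syd-5 peaks was 77.0%, 86.1%, 92.4%, 42.3% and 56.0%, with 24.3% to 41.2% when 1 library was left out. The SWI3C-GFP share was 54.7% (overlap), 25% (strict BRM), 47.3% (strict in all), 26.2% (label reading) and 13.0% (no MINU2), with 4.10% to 9.09% when 1 library was left out. The mean share in SYD lists 1 and 2 was 80.5% (overlap) and 79.9% (strict in all), with 29.9% to 46.6%.

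The share of summits in or within 1 kb of a gene was 94.4% (strict BRM), 92.0% (strict in all), 90.6% (no SYD 1 and 2 peak), 94.7% (no MINU2), 78.2% (500 bp), 93.4% (2 kb) and 81.8% to 87.2% when 1 library was left out. The median width was 1268 bp (overlap), 804 (strict BRM), 966.5 (strict in all), 597 (equal lengths), 517 (no MINU2) and 393 to 604 when 1 library was left out. For the 3 differences between lines, a −log10 q of at least 10 gave −3.42 points for SYD-N-GFP syd-5 brm-1, −6.11 for SYD-N-GFP syd-5 swi3d-1 and −8.80 for SWI3D-GFP swi3d-1 syd-5. Label reading turned the last to 43.6 points. Leaving out 1 library gave −14.2 to −25.2, −26.4 to −37.4 and −16.4 to −22.2 points. The cause of these shifts was not tested. With the replicate number as a block the differences were −19.7, −31.9 and −16.4 points; the numbers are shared names only, with 2 pairs per test. Motif windows were not run, and for SYD lists 1 and 2 no value exists where they join the selection or groups are read from labels.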
